A study of Mus musculus with 8 samples.

Results

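The genes described are those that encode the proteins of the cytoplasmic ribosome in the mouse. They were taken from the authors' comparison table by gene symbol, as every row named Rpl or Rps with a number and at most the letters a, x or l, together with Rplp0, Rplp1, Rplp2, Rpsa and Rps27rt. This gave 88 of 14853 rows (0.592%) with 85 distinct symbols. The IDs of 3 rows belong to other RefSeq genes, namely Rpl34-ps1, Rpl32l and Rpl37rt, which the table lists as Rpl34, Rpl32 and Rpl37. The remaining rows comprise 31 genes of the small 40S subunit, 43 of the large 60S subunit, 3 of the ribosomal stalk and 8 paralogs, so that with those 3 rows there are 11 paralogs or copies beside 77 canonical genes.

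The cells, labelled as spermatogonial stem cells, were undifferentiated spermatogonia, the premeiotic testis cells that hold the stem cells of the male germ line, from C57BL/6 mice aged 8 to 12 weeks. The genotypes were Tert CreER/flox : Rosa lsl-Tdtomato/+ (titled TERT-del, 4 samples) and, as the control, Tert CreER/+ : Rosa lsl-Tdtomato/+ (titled TERT-hetero, 4 samples). Tert encodes the catalytic protein of telomerase, which lengthens chromosome ends, and CreER is a recombinase that tamoxifen activates. All mice therefore had CreER at 1 Tert allele, carried the Tdtomato reporter that Cre switches on, and received tamoxifen. MCAM-high, KIT-negative, Tdtomato-positive cells were sorted on day 7, and total RNA was sequenced. The labels do not say whether samples came from separate animals, so the p-values measure only the spread between these samples. For the loxP-flanked part of Tert, its extent is not given in the sources used.

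Each ribosome is built from ribosomal RNA and 1 copy of most ribosomal proteins, so a cell needs their mRNAs in similar amounts. These mRNAs are short and abundant, and most begin with a run of pyrimidines, the 5′ terminal oligopyrimidine (TOP) motif, through which the growth kinase complex mTORC1 and the binding protein LARP1 set their translation and stability. Ribosomal protein genes also carry small nucleolar RNAs (snoRNAs) in their introns, which guide the chemical modification of ribosomal RNA, and they have left many processed pseudogenes in mammalian genomes. In the testis, X-linked ribosomal protein genes have autosomal retrocopies, such as Rpl10l and Rpl39l in the mouse, that serve when the X chromosome is silent in meiosis.

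Only the authors' comparison was used, with no values per library, so single samples and the overlap of the groups cannot be shown. All changes below are log2 fold changes of CreER/flox over CreER/+ with their standard error (SE) from the authors' deposited table. Adjusted p is the deposited Benjamini-Hochberg adjusted p of the DESeq2 Wald test over all rows, and a gene is called when it is under 0.05. Abundance is the deposited mean normalized count over all libraries, divided by transcript length in kilobases where genes are compared. The direction is taken from the name of the table, which sets flox against WT. The labels hold no wild type, so reading WT as the CreER/+ group is an inference. Tert itself stood at 0.29 (SE 0.26, adjusted p 0.595, mean count 98.0) per the authors' deposited table and so checks neither the sign nor the labels.

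Ribosomal protein mRNAs were slightly higher in CreER/flox spermatogonia, nearly all in the same direction and by a small amount. Per the authors' deposited table, 13 of 88 rows (12 of 85 symbols) were called higher and 0 lower, while 1.94% of all rows were called higher and 3.42% lower. Of the 88 rows, 83 (94.3%) lay above 0, with a median log2 fold change of 0.17, which is 1.12-fold, and quartiles of 0.11 and 0.21. Of all rows, 50.1% lay above 0, with a median of 0.001 and quartiles of -0.19 and 0.15. At an unadjusted p under 0.05, 44 members were higher and 0 lower in the authors' deposited table, where 9.15% of all rows were higher and 10.5% lower. The ribosomal protein rows were thus concentrated in a narrow band just above 0, with Rps9 and the scarce Rpl32l apart on the high side and the scarce Rpl3l on the low side.

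These calls depend on the null distribution of the test and on a trend in the table. With a t distribution of 6 degrees of freedom in place of the normal, 0 members and 0 rows of the whole table passed after adjustment (1652 rows at an unadjusted p under 0.05), and with the null SD estimated from the table (1.45) again 0 members passed, beside 5 rows of the whole table. With a fit of the fold change to the length, GC content and mean count of transcripts taken out, 2 members were still called, as given further on. All 25 spermatid markers lay on the other side of 0 (median -1.09), and their part in the values of the ribosomal protein genes was not tested.

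**Figure D1:**
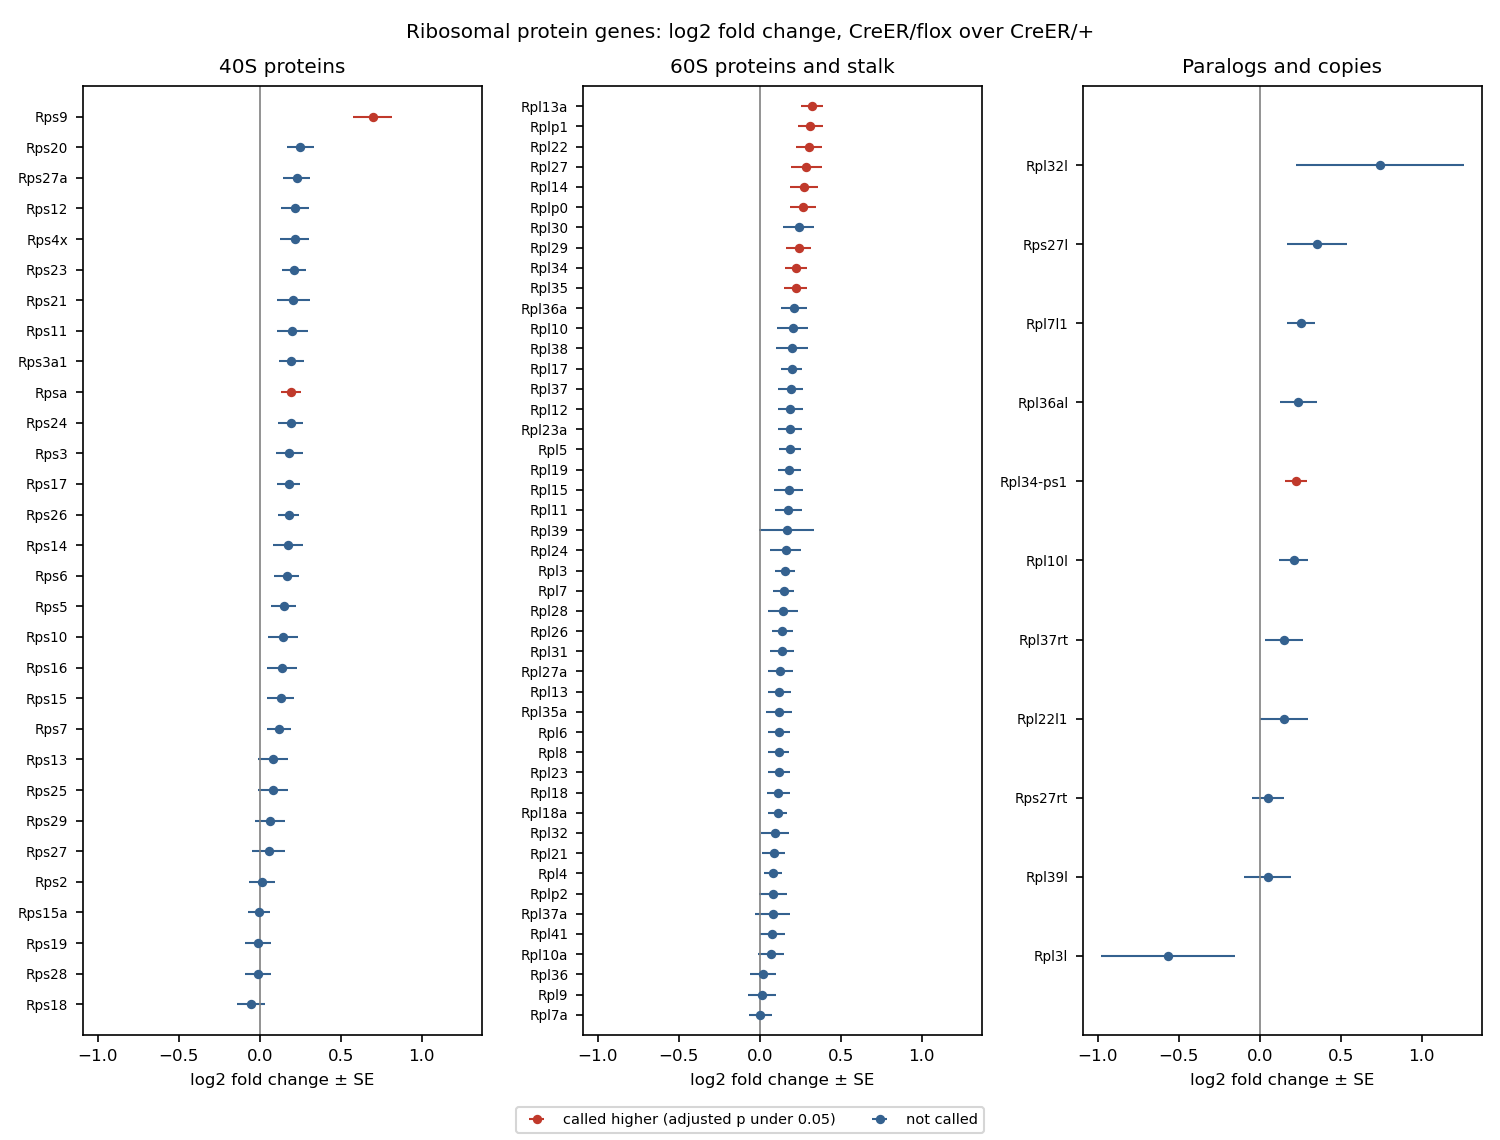
Log2 fold change of CreER/flox over CreER/+ (horizontal axis, with its SE as bars) for 87 of the 88 ribosomal protein rows, split into the 40S subunit, the 60S subunit with the stalk, and paralogs or copies. Red points are called higher and blue points are not called; all but 5 of these points lie right of 0, and Rps9 stands out among the 40S genes.

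Among the 40S genes, 3 of 31 were called higher. Rps9, which encodes an early-assembling protein near the mRNA entry channel, had the largest change of any called member, 0.70 (SE 0.12, adjusted p 7.06e-06, 1.62-fold) at a mean count of 2112 in the authors' deposited table. It lies on chromosome 7 (3703954 to 3706897 in GRCm38). Its SE was larger than those of the 20 other members with mean counts between 1500 and 3000, which ran from 0.067 to 0.10. Rpsa, which is also known as a laminin receptor (chromosome 9, 120127766 to 120132369), rose by 0.19 (SE 0.06, adjusted p 0.0295) per the authors' deposited table and had the highest mean count of all members, 21704.

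The 60S subunit had 7 of 43 genes called higher, and all 43 lay above 0. Rpl13a, known for a second role in repressing translation of inflammatory mRNAs (chromosome 7, 45125563 to 45128745), rose by 0.32 (SE 0.07, adjusted p 0.000712, 1.25-fold) at a mean count of 13994 in the authors' deposited table. Rpl22, an RNA-binding protein that is dispensable for most cells but needed for T cell development in the mouse (chromosome 4, 152324436 to 152334082), rose by 0.30 (SE 0.08, adjusted p 0.0103). Rpl27 (chromosome 11, 101442245 to 101445596) rose by 0.29 (SE 0.09, adjusted p 0.0423) and Rpl14 (chromosome 9, 120571517 to 120574653) by 0.27 (SE 0.08, adjusted p 0.0324) per the authors' deposited table. These 4 genes differed from each other by less than their SEs, so their order is not resolved.

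The other called 60S genes had somewhat smaller values in the authors' deposited table. Rpl29 (chromosome 9, 106428889 to 106431568) rose by 0.24 (SE 0.08, adjusted p 0.0393). Rpl35, which sits at the exit of the tunnel through which the new protein chain leaves (chromosome 2, 39001581 to 39005131), rose by 0.22 (SE 0.07, adjusted p 0.0397). Rpl34 (chromosome 3, 130726827 to 130730398) rose by 0.22 (SE 0.07, adjusted p 0.0319) at a mean count of 5878. The row of its copy Rpl34-ps1 (chromosome 6, 71124589 to 71125001) had nearly the same values, 0.22 (SE 0.07, adjusted p 0.0309) at a mean count of 5831, so reads may be shared between the copies and the 2 rows are no separate evidence.

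The stalk is the flexible arm of the 60S subunit that recruits translation factors, built from Rplp0 at its base and the small acidic proteins Rplp1 and Rplp2. Rplp1 (chromosome 9, 61913283 to 61914510) rose by 0.31 (SE 0.08, adjusted p 0.00633) and Rplp0 (chromosome 5, 115559467 to 115563729) by 0.27 (SE 0.08, adjusted p 0.0225) per the authors' deposited table. Rplp2 (chromosome 7, 141447651 to 141451359) was not called, at 0.08 (SE 0.09, adjusted p 0.682). Per kilobase of transcript, Rplp1 had the highest mean count of all members, 18495, beside 10878 for Rplp0 and 10446 for Rplp2. The difference between Rplp1 and Rplp2 was not tested.

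The members nearest to the threshold without passing it were Rps20 of the 40S head, at 0.25 (SE 0.08, adjusted p 0.0527), Rpl17, at 0.20 (SE 0.07, adjusted p 0.0565), and Rps23 of the decoding centre, at 0.21 (SE 0.07, adjusted p 0.0587), per the authors' deposited table. At the other end, 5 rows lay below 0 and none was called. Rps18 stood at -0.06 (SE 0.09), Rps28 at -0.01 (SE 0.08), Rps19 at -0.01 (SE 0.08) and Rps15a at -0.005 (SE 0.07) per the authors' deposited table, all at mean counts above 2000, and each is a 40S protein. The fifth was Rpl3l, at -0.57 (SE 0.41) and a mean count of only 22.0, the lowest of all members. Of the genes mutated in human Diamond-Blackfan anaemia, a failure of red cell production, the authors' deposited table had, beside Rps19, Rps26 at 0.18 (SE 0.07, adjusted p 0.0943), Rpl5 at 0.18 (SE 0.07, adjusted p 0.0820) and Rpl11 at 0.18 (SE 0.08, adjusted p 0.200). Rps6, the protein that S6 kinase phosphorylates, stood at 0.17 (SE 0.08, adjusted p 0.197).

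The starts of the called genes are shown because TOP mRNAs are defined there. Promoters from RefSeq (GRCm38.p6) were found for 67 members, 9 of them called. Each line gives 35 bases before an annotated transcript start, which can lie inside the gene span given above, and the first 15 after it, 5′ to 3′ on the gene's strand, with the longest unbroken run of C and T in capitals. Rpl22 and Rpl34 have 2 annotated starts and Rps19 has 3, of which the start with the longest run is shown, and runs and motifs below were likewise sought at every start of a gene.
Rps9 (chr7:3704006-3704055, + strand): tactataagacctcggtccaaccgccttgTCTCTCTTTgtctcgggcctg
Rpsa (chr9:120127731-120127780, + strand): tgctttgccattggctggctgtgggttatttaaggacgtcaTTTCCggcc
Rpl13a (chr7:45128731-45128780, - strand): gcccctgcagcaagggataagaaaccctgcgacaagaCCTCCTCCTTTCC
Rpl22 (chr4:152325691-152325740, + strand): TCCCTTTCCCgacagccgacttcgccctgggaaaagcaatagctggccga
Rpl14 (chr9:120571482-120571531, + strand): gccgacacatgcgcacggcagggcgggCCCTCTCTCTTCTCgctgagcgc
Rpl34 (chr3:130730323-130730372, - strand): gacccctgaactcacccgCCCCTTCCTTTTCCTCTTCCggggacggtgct
Rpl35 (chr2:39005117-39005166, - strand): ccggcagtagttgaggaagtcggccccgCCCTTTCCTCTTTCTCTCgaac
Rpl27 (chr11:101442210-101442259, + strand): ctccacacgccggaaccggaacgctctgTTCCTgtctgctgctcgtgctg
Rplp0 (chr5:115559432-115559481, + strand): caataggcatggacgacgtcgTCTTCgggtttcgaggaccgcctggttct
The canonical genes with the lowest log2 fold changes follow in the same form.
Rps18 (chr17:33955651-33955700, - strand): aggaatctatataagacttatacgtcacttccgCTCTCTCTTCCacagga
Rps28 (chr17:33824548-33824597, - strand): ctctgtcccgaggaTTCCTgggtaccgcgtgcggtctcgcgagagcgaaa
Rps19 (chr7:24884878-24884927, + strand): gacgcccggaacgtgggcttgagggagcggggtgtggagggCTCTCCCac
Rps15a (chr7:118116133-118116182, - strand): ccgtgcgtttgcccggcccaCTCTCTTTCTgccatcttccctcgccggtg
Among the called genes, Rpl34, Rpl35, Rpl14 and Rpl13a had runs of 20, 18, 14 and 13 pyrimidines, whereas those of Rplp0, Rpsa and Rpl27 were 5 long. Runs were sought only within the printed bases. The run of Rpl13a reaches the last of them and that of Rpl22 begins at the first, so both may be longer. Among the genes at the low end the runs were 11 in Rps18, 10 in Rps15a, 7 in Rps19 and 5 in Rps28, so long and short runs occurred at both ends. A run of at least 8 pyrimidines was present in 34 of 67 members (50.7%), in 6 of the 9 called ones (66.7%) and in 22.7% of 11010 other protein-coding genes. Such a run could lie anywhere in the 50 bases and need not begin at the transcript start. That of Rpl22 begins 35 bases before the start shown, so these shares are not shares of TOP mRNAs.

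Fixed motifs gave a similar description of these promoters. CTTTCC on the sense strand within 25 bases of the start was found in 12 of 67 members (17.9%), among them Rpl13a and Rpl35, and in 2.70% of the other protein-coding genes. Rpl22 has the same letters in the window printed above, but farther than 25 bases before that start. Within 250 bases before and 50 after the start, on both strands, the ETS-type motif CCGGAAG was found in 38.8% of members and 18.8% of other genes, the YY1-type motif AAGATGG in 14.9% and 8.13%, the GC box GGGCGG in 59.7% and 65.9%, and the E-box CACGTG in 8.96% and 11.8%. TATAAA on the sense strand within 50 bases before the start was found in 1.49% of members and 1.66% of other genes. The motifs were searched separately and may overlap, and a match is only a match of letters.

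The ribosomal protein genes were among the most abundant in the table. Their median mean count was 3077, against 192 over all rows, and together they held 3.97% of the summed mean counts, with rows of identical values counted once. By mean count 57 of 88 lay in the top 5% of the table, and by mean count per kilobase 76 lay in the top 5% of protein-coding rows. Mean counts, which also grow with transcript length, were highest for Rpsa (21704), Rpl5, a partner of 5S ribosomal RNA (16103), and Rplp0 (14772) per the authors' deposited table, and lowest for Rpl3l (22.0), Rpl32l (23.2) and Rps27l (131). Per kilobase, Rplp1 (18495), Rpl26 (16197) and Rpl13a (13366) stood highest. All 13 called rows had a mean count of at least 2112, a level that 60 members reached.

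Even so, the typical change was below what could be called. The smallest absolute Wald statistic among called rows was 3.00. Multiplied by each member's SE, this gives the smallest change that could have been called, with a median over members of 0.24 on the log2 scale (1.18-fold), and for only 1 member was it at or under the group's median change. The 95% interval of the log2 fold change lay above 0 for 44 members, covered 0 for 44 and lay below 0 for 0. For 73 of the 75 members not called, its upper bound was under 1.5-fold.

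**Figure D2:**
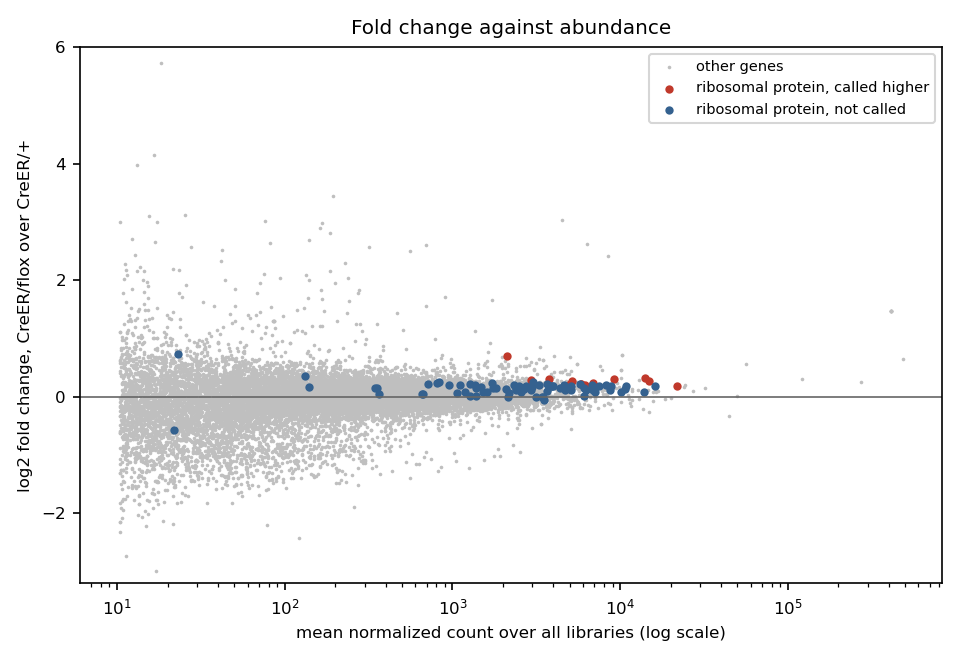
Log2 fold change of CreER/flox over CreER/+ (vertical axis) against mean normalized count (horizontal, log scale) for all rows of the table. Ribosomal protein genes (red where called higher, blue where not) crowd the high-count side just above 0, and all called ones have mean counts of at least 2112.

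Differences between sets of genes within the ribosome were not tested. The median log2 fold change was 0.17 for the 40S genes, 0.16 for the 60S genes, 0.27 for the 3 stalk genes and 0.21 for the 11 paralogs and copies, of which 1 row, Rpl34-ps1, was called. None of the 4 canonical X-linked genes was called. Rps4x stood at 0.22 (SE 0.09, adjusted p 0.137), Rpl36a at 0.21 (SE 0.08, adjusted p 0.0866), Rpl10 at 0.20 (SE 0.10, adjusted p 0.220) and Rpl39 at 0.17 (SE 0.17, adjusted p 0.652) per the authors' deposited table. Their median was 0.21, against 0.16 for the 73 canonical autosomal genes, 12 of which were called. Their mean counts, 139 to 1265, were lower than the autosomal median of 3666. Per kilobase of transcript, the median was 924 for the X-linked and 4431 for the autosomal genes.

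The paralogs were set beside their parent genes, with the differences between them not tested. Rpl10l, the autosomal retrocopy that takes over from Rpl10 in mouse meiosis, stood at 0.21 (SE 0.09) beside 0.20 for Rpl10 in the authors' deposited table, and its mean count per kilobase was 0.967 times that of Rpl10. Rpl39l, a testis-enriched form of Rpl39 needed for normal sperm in the mouse, stood at 0.05 (SE 0.15) beside 0.17 for Rpl39, at 1.99 times its mean count per kilobase. Rpl36al stood at 0.24 (SE 0.11) beside 0.21 for the X-linked Rpl36a, at 0.241 times its mean count per kilobase. These ratios depend on the transcript taken for each gene, the longest annotated one. It had 1276 nucleotides for Rpl36al and 483 for Rpl36a, whose mean counts were 806 and 1265. The libraries also held RNA of spermatocyte and spermatid markers, such as Ldhc with a mean count of 1022 and Tnp1 with 1924 in the authors' deposited table, and its part in the levels of these retrocopies was not tested. Rps4l, whose row carries no symbol and so is no member, stood at 0.06 (SE 0.09) beside Rps4x at 0.22 in the authors' deposited table.

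For Rpl22 the paralog is Rpl22l1, which Rpl22 represses in the mouse. Rpl22l1 stood at 0.15 (SE 0.15, adjusted p 0.638) beside the called 0.30 of Rpl22 in the authors' deposited table, at 0.342 times its mean count per kilobase. The transcript lengths used were 552 nucleotides for Rpl22l1 and 2051 for Rpl22, at mean counts of 345 and 3754. Rps27l, a p53 target in human cells, stood at 0.35 (SE 0.18, adjusted p 0.264) beside 0.05 (SE 0.10) for Rps27. Rps27rt and Rps27 had nearly the same values, 0.05 each at mean counts of 655 and 665, and may share reads. Rpl7l1 stood at 0.25 (SE 0.09, adjusted p 0.0599) beside 0.15 for Rpl7. Rpl3l, the form of striated muscle, had a mean count per kilobase of 0.00354 times that of Rpl3, which stood at 0.16 in the authors' deposited table. Rpl32l and Rpl37rt were not called, at 0.74 (SE 0.52) and 0.15 (SE 0.12).

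Rows that are named as pseudogenes of ribosomal proteins, which the symbol rule leaves out unless they carry a gene's symbol, numbered 7 including Rpl34-ps1. All 7 lay above 0, between 0.17 and 0.48. Rpl14-ps1 was called higher in the authors' deposited table, at 0.48 (SE 0.12, adjusted p 0.00698) and a mean count of 1280, beside 0.27 for Rpl14, and is named here after its value was seen. How reads that map to several such copies were counted is not stated in the sources used here.

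Most snoRNAs located inside ribosomal protein genes had much larger log2 fold changes than the genes around them, with larger SEs. RefSeq places 60 snoRNAs within 30 of the member genes, and 32 of them, within 23 genes, had a row of their own. All 32 lay above 0 and above their host gene, 14 were called higher and 0 lower, and their median log2 fold change was 1.35 (2.54-fold) with a range of 0.24 to 2.69. The median difference between a snoRNA and its host was 1.18 on the log2 scale and was not tested. The median SE was 0.48 for these snoRNAs, against 0.08 for all members. Box C/D snoRNAs, which guide methylation, had 9 of 19 called and a median of 1.70, and box H/ACA snoRNAs, which guide pseudouridine formation, had 5 of 12 called and a median of 1.10. The same was seen outside these genes, since 25 of 68 other snoRNAs were called higher, with a median of 1.22, and all 100 snoRNA rows lay above 0.

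Rpl13a held 4 snoRNAs with a row, more than any other member. Within it the authors' deposited table had Snord34 at 2.69 (SE 0.59, adjusted p 0.00119), Snord32a at 1.77 (SE 0.44, adjusted p 0.00494) and Snord35a at 1.52 (SE 0.32, adjusted p 0.000670), all called, and Snord33 at 1.71 (SE 0.60, adjusted p 0.0663), not called. Mir5121, a microRNA row that overlaps Snord33 and was picked out after its value was seen, was called at 0.69 (SE 0.10, adjusted p 5.94e-09) with a mean count of 4050, against 905 for Snord33, with which it shares 28 of its 74 bases. Snord68 in Rpl13 was called at 2.16 (SE 0.56, adjusted p 0.00726), while Rpl13 itself stood at 0.12. Snora62 in Rpsa was called at 1.31 (SE 0.38, adjusted p 0.0207), per the authors' deposited table. The most abundant pair, Snord15a and Snord15b in Rps3, with mean counts of 9545 and 12918, stood at only 0.24 (SE 0.09) and 0.28 (SE 0.11) and was not called.

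Ribosomal protein genes with and without such snoRNAs had similar values. Members that overlap an annotated snoRNA had 3 of 30 called and a median of 0.17, and members that overlap none had 10 of 58 called and a median of 0.16. Whether reads of snoRNAs were counted for their hosts was not tested.

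**Figure D3:**
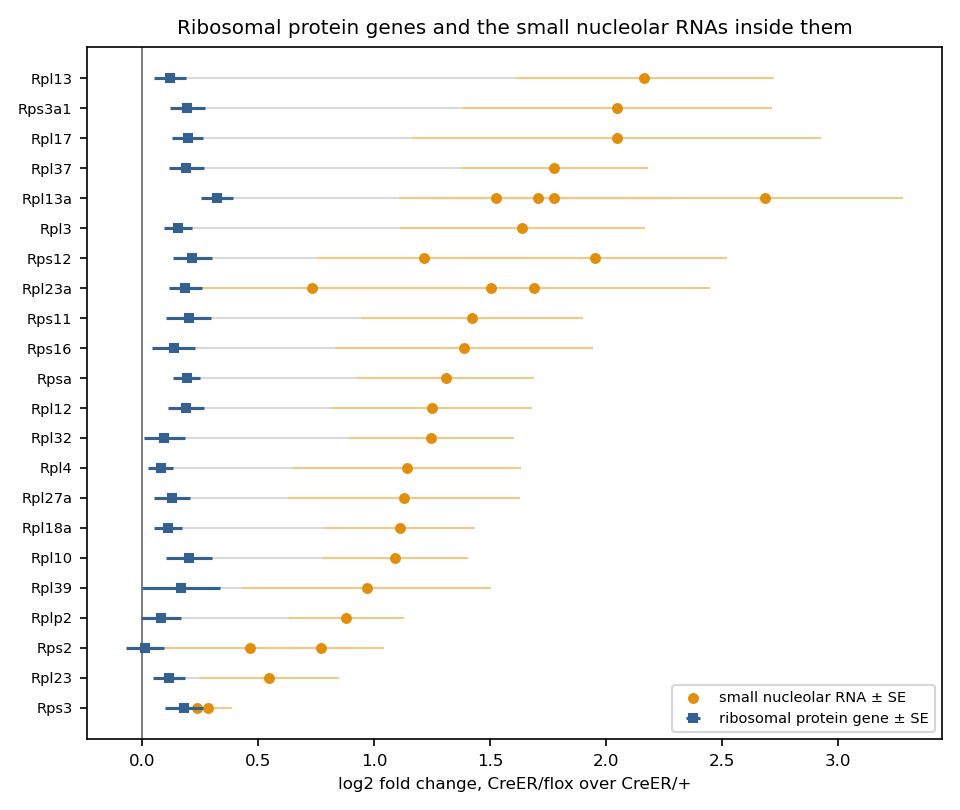
Log2 fold change of CreER/flox over CreER/+ (horizontal axis, bars are SE) for 22 ribosomal protein genes (blue squares) and the 30 snoRNAs within them (orange circles), 1 gene per row, ordered by the median of its snoRNAs. Every orange point lies right of the blue square of its host, by least in Rps3.

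Other transcripts that are both short and abundant also lay mostly above 0. Members had a median transcript length of 937 nucleotides, against 3107 over all rows. Among other protein-coding genes of at most 1000 nucleotides and a mean count of at least 1000, 64 of 81 lay above 0, with a median of 0.28 and 5 called higher and 0 lower, while members of the same class had 38 of 40 above 0, a median of 0.18 and 5 called higher. The median SE was 0.25 for these 81 genes and 0.079 for the 40 members, so the numbers of calls rest on unlike precision. In rows with a mean count of at least 5000, 30 of 30 members lay above 0, with a median of 0.19 and 10 called higher and 0 lower. Of the 153 other rows at that level, 66.7% lay above 0, with a median of 0.11 and 10 called higher and 6 lower. Protein-coding genes longer than 4000 nucleotides had a median of -0.03. With either property alone the other genes lay nearer to 0. Members of at most 1000 nucleotides at any count had a median of 0.17 with 95.8% above 0, against 0.03 with 53.4% above 0 for 753 other protein-coding genes. At mean counts of 1000 to 2000 the median was 0.14 for members and 0.04 for other rows, and at 2000 to 5000 it was 0.15 for members and 0.05 for other rows. In the class both short and abundant, the quartiles were 0.11 and 0.20 for members and 0.11 and 0.50 for the other genes. These differences were not tested.

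With a fit of the fold change to length, GC content and mean count taken out of the protein-coding rows, the members' median was 0.08, with 70 of 85 (82.4%) above 0 against 55.0% of 13659 protein-coding rows, and 2 members were still called. These were Rps9, at 0.62 (adjusted p 0.000143), and Rplp1, at 0.26 (adjusted p 0.0391). Rpl13a stood at 0.20 (adjusted p 0.0898) and Rpl22 at 0.19 (adjusted p 0.204) after this step, and Rpl34, Rpl35, Rpl14, Rpl27, Rpl29, Rpsa and Rplp0 likewise lost their call at values of 0.03 to 0.24.

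**Figure D4:**
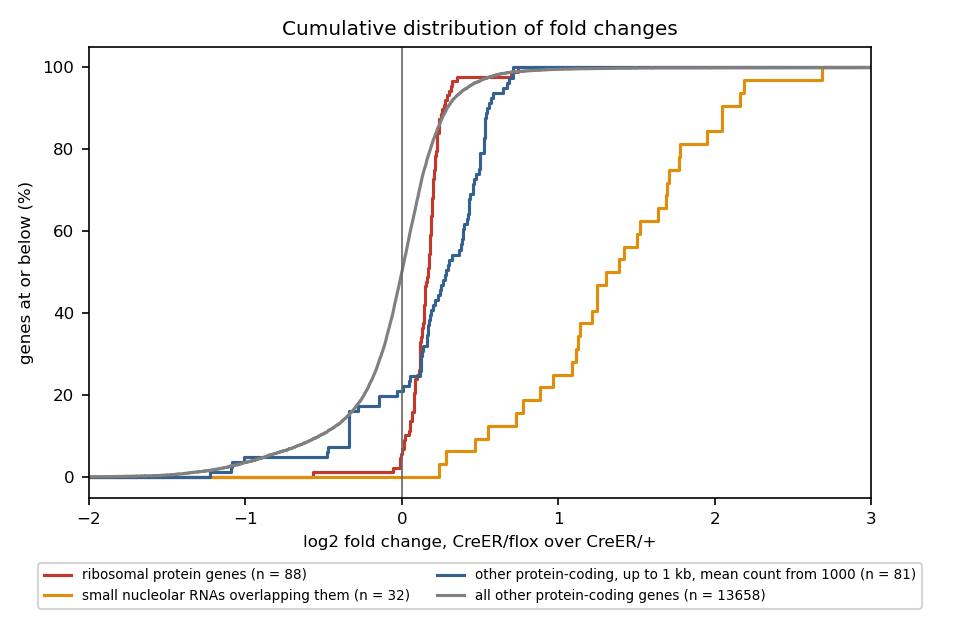
Cumulative share of genes (vertical axis, percent) at or below each log2 fold change of CreER/flox over CreER/+ (horizontal axis). The curve of the 88 ribosomal protein genes (red) is steep around its median of 0.17, the 81 other short, abundant protein-coding genes (blue) spread more widely around 0.28, and the 32 snoRNAs within ribosomal protein genes (orange) lie far to the right of all other protein-coding genes (grey).

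Genes that work with ribosomal proteins were described from lists chosen for that purpose. The 3 ribosomal proteins whose names do not follow the rule had none called and a median of 0.16. They include the scaffold gene Rack1, which stood at 0.21 (SE 0.07, adjusted p 0.0619) per the authors' deposited table. Of 17 mRNAs of other TOP genes, mainly translation factors, 14 lay above 0 and 3 below, with a median of 0.13. Among them 4 were called higher and 0 lower. Eef1b2, of the elongation factor exchange complex, rose by 0.28 (SE 0.07, adjusted p 0.0104), the initiation factor gene Eif3e by 0.30 (SE 0.10, adjusted p 0.0485), the histone chaperone gene Nap1l1 by 0.20 (SE 0.06, adjusted p 0.0320) and Tpt1, which encodes translationally controlled tumour protein, by 0.19 (SE 0.06, adjusted p 0.0392) per the authors' deposited table. None of these 4 was still called with the fit to length, GC content and mean count taken out, where they stood at 0.006 to 0.14.

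Chaperones and importers that escort new ribosomal proteins had 0 of 15 called in either direction and a median of 0.12. The lowest p-values there belonged to the importin gene Ipo7, at 0.31 (SE 0.11, adjusted p 0.0750), and the 40S assembly factor gene Ltv1, at 0.20 (SE 0.09). Genes that assemble the 5S particle of Rpl5 and Rpl11 or belong to the p53 sensor it feeds had 0 of 6 called and a median of 0.11, with Rrs1 at 0.36 (SE 0.13, adjusted p 0.0599) and Nop53 at 0.11 (SE 0.09) per the authors' deposited table. In the mTORC1 and LARP1 pathway 0 of 19 genes were called higher and 1 lower, with 9 above and 10 below 0 and a median of -0.008. Larp1 itself, named here after its value was seen, was not called, at -0.15 (SE 0.06, adjusted p 0.107). The called gene was Mtor, the kinase itself, which fell by 0.20 on the log2 scale (SE 0.06, adjusted p 0.0214) per the authors' deposited table, and stood at -0.19 (adjusted p 0.0591) with that fit taken out. Ribosome quality control genes had 0 of 10 called and a median of -0.02, with the recycling factor gene Abce1 at 0.24 (SE 0.09, adjusted p 0.0793) and Nemf at 0.17 (SE 0.09). Factors that bind ribosomal protein promoters had 0 of 4 called and a median of 0.06, with Gabpa and Yy1 both at 0.09 (SE 0.09 and 0.11).

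**Figure D5:**
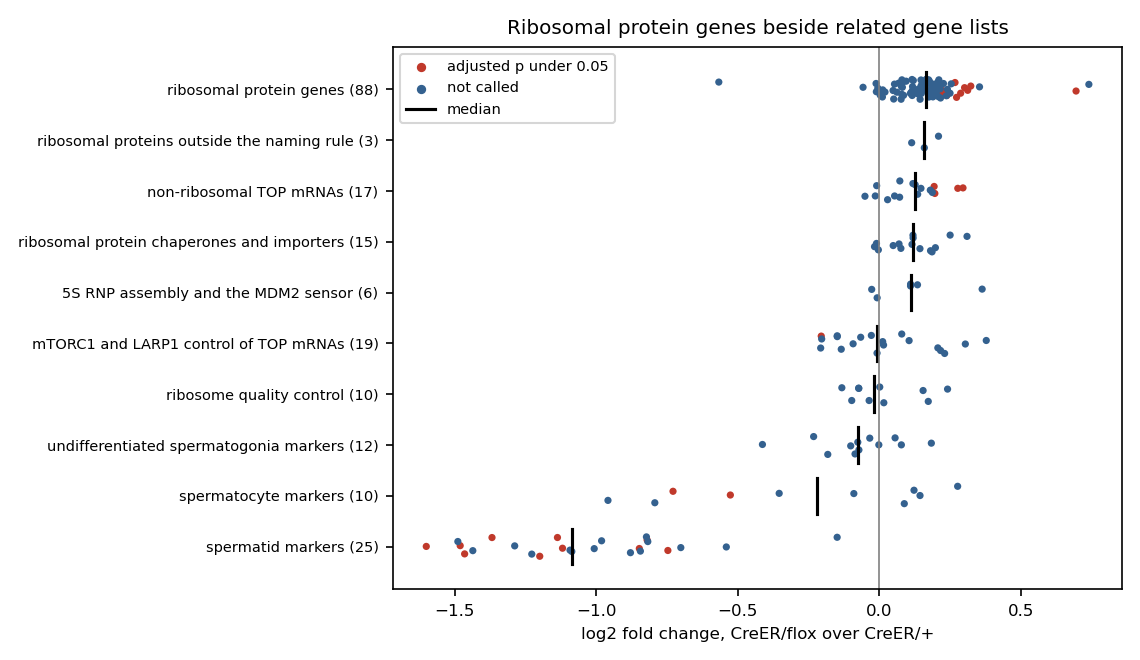
Log2 fold change of CreER/flox over CreER/+ (horizontal axis) for the ribosomal protein genes and 9 related gene lists, 1 point per gene, with the number of genes in brackets and the median as a black bar. Most ribosomal protein genes and most other TOP mRNAs sit to the right of 0, the mTORC1 list is centred on 0, and all 25 spermatid markers lie left of 0.

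The cells were checked against their markers. All 12 markers of undifferentiated spermatogonia on the list had a row and none was called, with a median of -0.07. The lowest p-values among them belonged to Ret, at -0.23 (SE 0.08, adjusted p 0.0798), and Zbtb16, at -0.18 (SE 0.07, adjusted p 0.0875), with mean counts of 2926 and 5143 in the authors' deposited table. Both passed with the fit taken out, at -0.28 (adjusted p 0.0424) and -0.25 (adjusted p 0.0178). The 6 markers of differentiating spermatogonia had none called and a median of -0.01.

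Markers of haploid germ cells lay opposite to the ribosomal protein genes. All 25 spermatid markers lay below 0, with a range of -1.60 to -0.15, a median of -1.09, and 10 called lower and 0 higher, and their mean counts ran from 20.1 to 2304. The 10 spermatocyte markers went both ways, with 6 below and 4 above 0, a median of -0.22, and 2 called lower and 0 higher. The called ones were Piwil1, at -0.73 (SE 0.14, adjusted p 0.000111), and Sycp2, at -0.53 (SE 0.15, adjusted p 0.0158), per the authors' deposited table. In bulk samples, fewer cells of a type and less RNA per cell cannot be told apart. Markers without a row were not analysed here. Among somatic cells, 7 of 9 Sertoli cell markers had a row, 4 above and 3 below 0, with a median of 0.06. Trf alone of these 7 was called, higher at 0.62 (SE 0.15, adjusted p 0.00255), per the authors' deposited table. Of the uncalled ones, Gata4 stood at 0.58 (SE 0.42) and Rhox5 at 0.35 (SE 0.52). Sox9 stood at -0.50 (SE 0.49) and Clu at -0.36 (SE 0.39) there. Of the myoid markers, 3 of 6 had a row, of which Actg2 was called lower, at -1.17 (SE 0.37, adjusted p 0.0340; 0.0821 with the fit taken out). No called gene was found among the 1 of 6 Leydig, 5 of 6 endothelial, 1 of 7 leukocyte (Cd68) and 5 of 6 erythroid markers with a row.

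The called members lay on 8 chromosomes, with Rplp1, Rpsa, Rpl14 and Rpl29 on chromosome 9 and Rps9 and Rpl13a on chromosome 7. Chromosome 9 held 8 members, 4 of them called higher, against 14.8% of all members, with a median of 0.22, and of all its 824 rows 14 were called higher and 21 lower. Rpsa and Rpl14 lie 439 kb apart there and have the neighbouring genes Myrip and Eif1b in common. Chromosome 7 held 14 members, 2 of them called higher, with a median of 0.14, and of all its 1103 rows 36 were called higher and 44 lower. The 3 nearest measured protein-coding genes on either side of each called member, 76 distinct genes, had a median log2 fold change of -0.06, and 6 of them were called. Of these, Ostc was higher, at 0.47, and Chd5, Kcnab2, Ttc21a, Tex37 and Ulk4 were lower, between -1.51 and -0.47. Of all rows, 1.94% were called higher and 3.42% lower. The 6 neighbours of Rps9 ran from -0.76 to 0.32 and none was called.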

How the data were processed

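Total RNA was sequenced from sorted spermatogonia, 4 CreER/flox and 4 CreER/+ samples. Per the labels' protocols, DNase-treated RNA was purified on columns and libraries were made with the SMARTer kit for stranded total RNA at low input, so RNAs that lack poly(A) were kept. DESeq2, Bowtie, Bowtie2 2.0.0-6, TopHat2 2.0.4 and Trim Galore appear in the submitters' processing notes, with the builds GRCm38 and mm10. Which program counted the reads, with which annotation and strand setting, and what was done with multi-mapping reads is not given in the sources used.

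The analysis used the authors' comparison table alone. Its mean count is a normalized count signal that the authors averaged over libraries. The log2 fold changes and their SEs are also the authors'. Their deposited Wald statistic, a score, matched the ratio of log2 fold change to SE to within 2.58e-07. The deposited p-values matched a normal distribution of that score to within 0.424%, and the adjusted ones a Benjamini-Hochberg adjustment over the table to within 0.426%. Library totals were not used, so the precision of a value is given by its SE.

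Gene IDs were matched to RefSeq (GRCm38.p6) for 14828 of 14853 rows, since 1183 lacked a symbol. Transcript length and GC content are those of the longest protein-coding GENCODE M21 transcript of a gene. No model was fitted across libraries. Counts of calls and medians describe each set beside the whole table, without a test of sets. Alternatives covered the threshold, the null distribution, the rows adjusted over, a minimum fold, centring, removal of a fit to length, GC content and mean count, and which members were kept. Members and lists were chosen with earlier results of these data known. Named genes were the called members, the 5 lowest, the highest and lowest by mean count, those nearest the threshold, the stalk, X-linked, paralog and anaemia genes, Rps6, overlapping snoRNAs, and in each list the called genes or, with none, up to 2 of smallest p. Some named genes are not reported here, though counts and medians include them. Scripts were tested on simulated data. Tools were matplotlib 3.10.9, scipy 1.17.1, numpy 2.4.6 and pandas 2.3.3 under Python 3.11.15.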

Additional observations from a re-analysis of the deposited data

How the results depend on the processing

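The number of ribosomal protein rows called higher was 13 at an adjusted p under 0.05, 3 at 0.01 and 21 at 0.1. It was 0 with a t distribution of 6 degrees of freedom, 0 with the null SD estimated from the table, 7 with a minimum of 1.2-fold, and 2 of 85 rows once the fit to transcript length, GC and abundance was removed, where the median log2 fold change was 0.079. The cause of these differences was not tested. Under the other alternatives the count ran from 10, without members that overlap a snoRNA, to 14, when adjusted over rows with a mean count of at least 100, where Rps20 joined with an adjusted p of 0.0477. After the data were seen, 2 alternatives were added, which gave 12 calls where the deposited symbol equals that of RefSeq and 11 calls without chromosome 7. The count of members called lower was 0 under every alternative run. With that fit removed, 3 named genes turned their sign without being called before or after, namely Rplp2 to -0.030, Rpl5 to -0.026 and the leukocyte marker Cd68 to 0.11.

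No paired analysis was possible because the comparison table carries no values per library, and for the same reason no replicate could be left out. The SE limits what can be called: a member needed a log2 change of about 0.24 (median), more than most members showed, so a missing call does not show that a gene did not differ. Reads shared between near-identical copies cannot be assigned from the table.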
